A study of Mus musculus with 4 samples.

Results

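Lin28a, Lin28b, Hmga1, Hmga2, Igf2bp1, Igf2bp2 and Igf2bp3 form a group of oncofetal growth regulators. Most of them are active in the embryo and in many tumours and quiet in most adult tissues. Their probe sets were taken by gene symbol, without regard to their values. Of these 7 genes, 5 were named by 17 of the 45037 probe sets on an Affymetrix mouse array, with 2 for Lin28a, 1 for Lin28b, 4 for Hmga2, 4 for Igf2bp1 and 6 for Igf2bp3. Hmga1 and Igf2bp2 were not analysed here, since the annotation used pairs no probe set with them. A probe set is a group of short probes for one transcript, and its level is given on the log2 scale of the deposited values.

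RNA came from outer root sheath cells, the keratinocyte layer that wraps the growing hair, of 4 mice of strain FVB/N, aged 4 postnatal days, and each mouse gave 1 array. One male and one female were double transgenic (DTG), and so carried K14-rtTA together with TRE-miR-125b and K14-H2BGFP. In them, the keratin 14 promoter of basal keratinocytes drives a doxycycline-dependent activator that switches on the microRNA miR-125b. The male control was TRE-miR-125b/K14-H2BGFP, without the activator, and the female control was K14-rtTA/K14-H2BGFP, without the microRNA gene, so the control genotype changes with the sex. All 4 mice carried the K14-H2BGFP nuclear label and were given doxycycline on day 3 for 24 hours. The sort kept the cells brightest for GFP and α6 integrin and left out any stained for CD34, CD45, CD114 or DAPI. The comparison asked what changes in these cells within a day of induced miR-125b, which was itself not analysed here.

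Lin28a and Lin28b are RNA-binding proteins that hold back the maturation of the let-7 microRNAs, and Lin28 messenger RNA is itself a published target of the miR-125 family. Mature let-7 in turn lowers Hmga2, an architectural chromatin protein, and the Igf2bp proteins, which bind messenger RNAs such as those of Igf2, H19 and Myc and set their stability, location and translation. Hmga2 also activates transcription of Igf2bp2, so that the members form a connected circuit of growth control.

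The induced microRNA and the let-7 family are shown because they frame the circuit, with the seed (bases 2 to 8, which pair with targets) in capitals. The mature sequences are those of RefSeq, build GRCm38.p6.
miR-125b-5p: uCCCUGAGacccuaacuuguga
miR-125a-5p: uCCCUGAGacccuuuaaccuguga
miR-351-5p: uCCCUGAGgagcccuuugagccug
let-7a-5p: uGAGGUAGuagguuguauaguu
let-7b-5p: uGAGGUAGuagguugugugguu
let-7d-5p: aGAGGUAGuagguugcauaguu
let-7g-5p: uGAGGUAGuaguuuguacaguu
miR-98-5p: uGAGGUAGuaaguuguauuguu
The first 3 share the seed CCCUGAG and the other 5 share GAGGUAG. In that table, 5 mature names carry the miR-125 seed and 11 carry the let-7 seed. The 22-base miR-125b-5p is encoded at chr9:41581940-41581961 (Mir125b-1) and at chr16:77646279-77646300 (Mir125b-2), both on the plus strand. Each copy lies near a let-7 gene on the same strand. The 3p arm of let-7a-2 ends 45.1 kb upstream of the first copy, and let-7c-5p of Mirlet7c-1 ends 46.6 kb upstream of the second. In the same arrangement, let-7e-5p ends 429 bases upstream of miR-125a-5p on chromosome 17.

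The arrays differ between the sexes as a whole, which touches every level below. Their medians were 5.17 in both male arrays and 5.95 and 5.92 in the female DTG and control arrays, and over the 22518 probe sets tested the median male minus female difference was -0.69. DTG was therefore compared with the control of the same sex. The sort was checked with marker lists. The 9 outer root sheath markers, among them Krt5, Krt14 and Sox9, had a mean log2 level of 11.73 to 12.34 over the arrays, and all 6 immune markers lay near background on all 4 arrays. Markers of inner root sheath (mean 8.10 to 10.25), hair shaft (6.11 to 9.78) and fibroblasts (7.78 to 8.20) were measured as well. So were those of matrix (8.92 to 9.49), suprabasal epidermis (7.37 to 8.39) and melanocytes (5.92 to 7.19). The female melanocyte means (6.14 in DTG, 5.92 in control) and the female DTG hair shaft mean (6.11) lay under the background limits defined next. In such a sorted pool, fewer cells of a type and less RNA per cell cannot be told apart.

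A level was called near background on an array if it was at or below the 95th percentile of 76 probe sets for 39 genes of other organs, such as Alb of the liver and Gfap of astrocytes. That limit was 5.46 and 5.57 in the male DTG and control arrays, and 6.49 and 6.37 in the female DTG and control arrays. Of the 68 values of the members, 37 lay near background. Igf2bp3 had 0 of its 24 values there, Hmga2 13 of 16, Igf2bp1 12 of 16, and Lin28a and Lin28b all of theirs (8 and 4). A probe set's brightness also depends on its probes, so a level near background bounds what the array could see of a gene and is no proof of its absence.

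**Figure D1:**
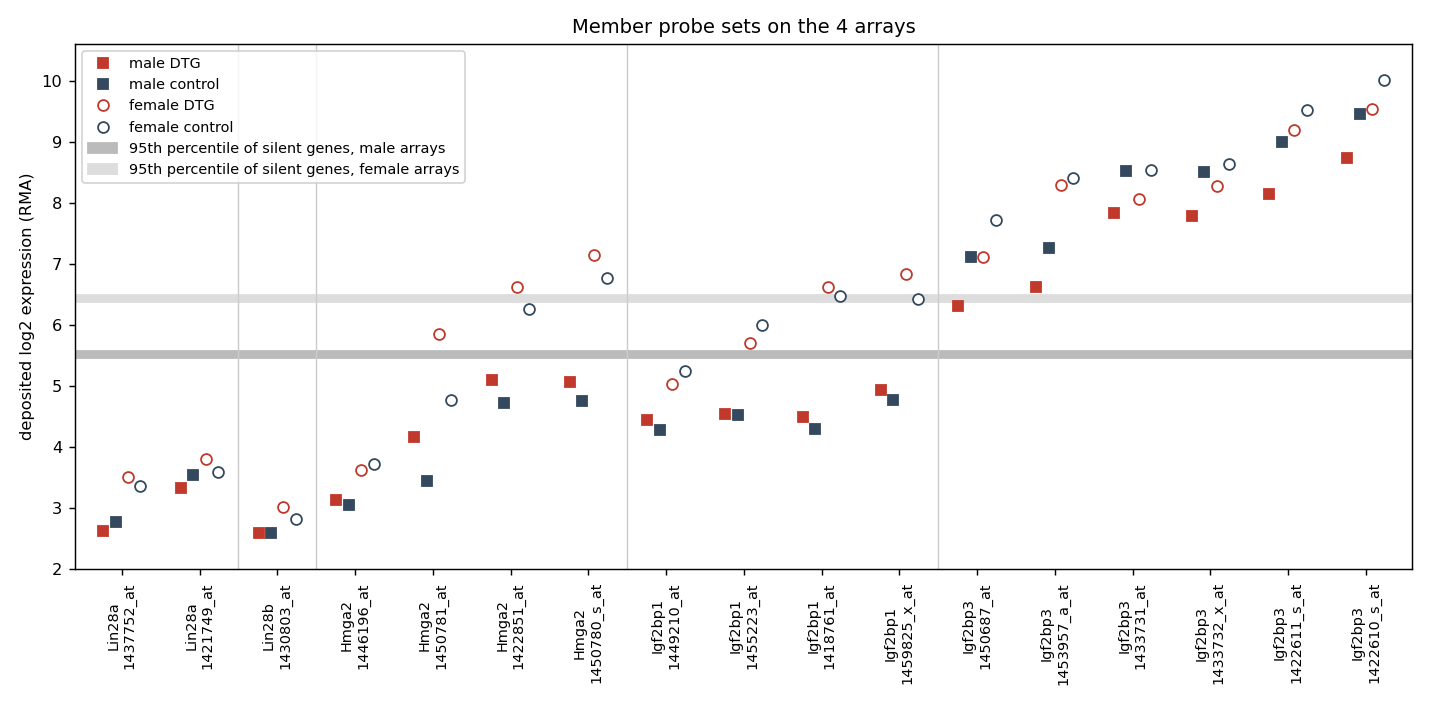
Deposited log2 level (vertical axis) of each of the 17 member probe sets on the 4 arrays. Squares are male and open circles female arrays, red is DTG and dark blue control, and the grey bands span the 95th percentile of the silent genes in the male (5.46 to 5.57) and female arrays (6.37 to 6.49). Only the 6 Igf2bp3 probe sets lie above their band on all 4 arrays.

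Lin28a, the form of Lin28 found in pluripotent and early embryonic cells, was near background in both genotypes. Its probe set 1421749_at measured 3.34 in DTG and 3.54 in control males, and 3.80 and 3.60 in the females. Its other probe set, 1437752_at, measured 2.63 and 2.77 in the males and 3.51 and 3.37 in the females, in the same order. The pairs moved in opposite ways for both probe sets, by -0.20 and 0.20 for the first and by -0.14 and 0.13 for the second. Lin28b, the paralog that acts at later stages and in tumours, measured 2.60 in both male arrays, 3.02 in the female DTG array and 2.82 in its control. None of these 3 probe sets passed the filter on dim values, which kept those whose mean over the arrays exceeded 5.54. Fitted without the filter by limma with sex as a block, the difference between DTG and control had a 95% interval of -0.39 to 0.39 for 1421749_at, -0.37 to 0.36 for 1437752_at and -0.25 to 0.46 for Lin28b (adjusted p = 1 for each). At such levels a decrease was not detectable on these arrays.

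Hmga2, which bends AT-rich DNA and sustains self-renewal in fetal tissues, was dim and slightly higher in DTG in both pairs by 3 of its 4 probe sets. Probe set 1450780_s_at measured 5.06 in DTG and 4.75 in control males, and 7.15 in DTG and 6.77 in control females. Only the 2 female values lay above background, and the groups overlapped because the sexes differ more than the genotypes do. Probe set 1422851_at measured 5.10 and 4.73 in the males and 6.63 and 6.26 in the females (DTG first), and the female DTG array alone was above background. With sex as a block, limma gave a difference of 0.34 for 1450780_s_at (SE 0.14, 95% interval -0.01 to 0.69, adjusted p = 0.80). It gave 0.37 for 1422851_at (SE 0.14, 95% interval 0.02 to 0.72, adjusted p = 0.77). Neither passed the test over all 22518 probe sets.

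The dimmer Hmga2 probe sets disagreed with each other. Probe set 1450781_at had the largest difference between DTG and control of the 17, at 0.72 for the male pair and 1.08 for the female pair, with 4.17 against 3.44 and 5.85 against 4.77. All 4 of its values lay near background and it did not pass the filter. In the limma fit of all 45037 probe sets its difference was 0.90 (95% interval 0.52 to 1.28, adjusted p = 0.728). Probe set 1446196_at, designed from another sequence record, measured 3.14 and 3.05 in the males and 3.63 and 3.73 in the females (DTG first) and moved by 0.10 and -0.10. The other 3 Hmga2 probe sets were designed from 1 shared record, so their common direction is not independent evidence.

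Igf2bp1, the family member that binds the coding region of Myc messenger RNA, lay near background in all male values and was above it in the females by 2 of 4 probe sets. Probe set 1459825_x_at, which alone passed the filter, measured 4.93 in DTG and 4.78 in control males, and 6.83 in DTG and 6.42 in control females. Its difference was 0.28 in limma with sex as a block (SE 0.15, 95% interval -0.09 to 0.65, adjusted p = 0.88). Probe set 1418761_at measured 4.50 and 4.30 in the males and 6.62 and 6.48 in the females (DTG first), with ratios of 0.20 and 0.14. The remaining 2 were split between the pairs. Probe set 1449210_at had 0.17 for the male pair and -0.21 for the female pair, and 1455223_at had 0.02 and -0.29. The 4 Igf2bp1 probe sets thus gave no common direction, with a mean ratio of 0.13 for the male pair and 0.01 for the female pair.

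Igf2bp3, whose protein binds and stabilises growth-related messenger RNAs and is a marker of several carcinomas, was the one member above background in all its values. It was lower in DTG in both pairs by all 6 of its probe sets. The brightest, 1422610_s_at, measured 8.73 in DTG and 9.45 in control males, and 9.53 in DTG and 10.01 in control females. DTG was lower within each sex, while the female DTG value still exceeded the male control value. Its ratios of -0.72 and -0.48 give a mean of -0.60 ± 0.17 (SD, n = 2 pairs), or 1.52-fold lower. Probe set 1422611_s_at measured 8.14 and 8.99 in the males and 9.19 and 9.52 in the females (DTG first), a mean of -0.59 ± 0.36 (SD, n = 2 pairs).

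The other Igf2bp3 probe sets gave the same direction at lower brightness. Probe set 1433731_at measured 7.83 and 8.52 in the males and 8.07 and 8.53 in the females (DTG first). Probe set 1433732_x_at measured 7.78 and 8.51 in the males and 8.27 and 8.64 in the females, in the same order. Probe set 1450687_at had the largest difference on average, with 6.31 and 7.12 in the males and 7.12 and 7.72 in the females, a mean of -0.70 ± 0.15 (SD, n = 2 pairs) or 1.63-fold lower. It was also the dimmest, and its DTG values lay at the highest silent values of those arrays, 6.29 in the male and 7.12 in the female. Probe set 1453957_a_at differed least, with 6.62 and 7.26 in the males but only 8.29 and 8.40 in the females, where its ratio was -0.11.

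Averaged over the 6 probe sets, Igf2bp3 was 1.67-fold lower in the male pair (mean log2 ratio -0.74) and 1.31-fold lower in the female pair (-0.39). The male ratios lay close together, from -0.85 to -0.64, and the female ratios were spread from -0.59 to -0.11. In 5 of the 6 the 95% interval of the limma difference lay below 0, as for 1422610_s_at (-0.97 to -0.23), and for 1453957_a_at it included 0 (-0.81 to 0.06). After Benjamini-Hochberg adjustment over all probe sets, limma called none of the 6, with adjusted p from 0.58 to 0.85 and unadjusted p from 0.00326 to 0.0819. The 6 probe sets come from 3 sequence records and measure one transcript in the same RNA, so they are not replicates of the genotype effect. By the naming of the array maker, probes of an _s_at or _x_at set can also match other transcripts. The 3 Igf2bp3 probe sets without either suffix had mean ratios of -0.71 for the male pair and -0.39 for the female pair.

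**Figure D2:**
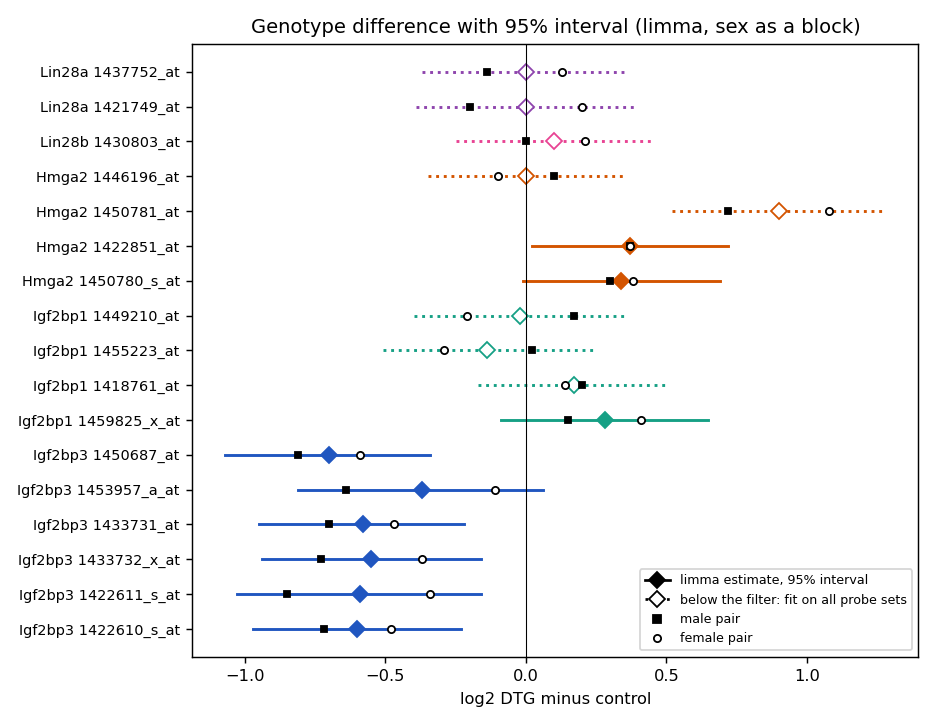
Difference between DTG and control on the log2 scale (horizontal axis) for the 17 member probe sets. Diamonds with lines are limma estimates with 95% intervals and sex as a block, filled where the probe set passed the filter and open with dotted lines where it was fitted without it; small squares and circles are the male and female pair. The Igf2bp3 estimates run from -0.70 to -0.37, and the 2 tested Hmga2 estimates are 0.34 and 0.37.

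Over the whole array, limma with sex as a block called 0 of 22518 probe sets at an adjusted p under 0.05 (0% of those tested), and genotype alone called 1 (0.00444%). At an unadjusted p under 0.05, 1012 probe sets were lower in DTG (4.49%) and 415 were higher (1.84%). Among the 9 tested members, 5 of 6 for Igf2bp3 were lower at that level and 1 of 2 for Hmga2, 1422851_at, was higher. An exact two-sided permutation test of 2 against 2 arrays cannot go below p = 0.333, so no member could pass one.

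By fold, 1 tested member probe set, 1450687_at of Igf2bp3, was at least 1.5-fold lower in DTG in both pairs, where 0.626% of all tested probe sets were. It lay just past the limit in the female pair, at -0.59, and was not past it after quantile normalization over the 4 arrays, at -0.54, which leaves 0 members. None was at least 1.5-fold higher in both, where 0.0488% of all were. At 1.2-fold, 5 of the 6 Igf2bp3 probe sets were lower in both pairs against 4.41% of all, and both tested Hmga2 probe sets were higher in both against 1.91% of all. At 2-fold no member was lower in both pairs (0.0533% of all) or higher (0.00444%). A common direction alone is frequent, since 25.1% of all tested probe sets were lower and 24.3% higher in both pairs. Without the filter, 6 of 17 member probe sets were lower in both pairs and 5 were higher, where 19.9% and 25.1% of all 45037 were. At 1.5-fold without the filter, 1450687_at was the only member lower in both (0.342% of all) and 1450781_at of Hmga2 the only one higher (0.0355% of all). The members' counts are described beside these shares and were not tested as a group.

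**Figure D3:**
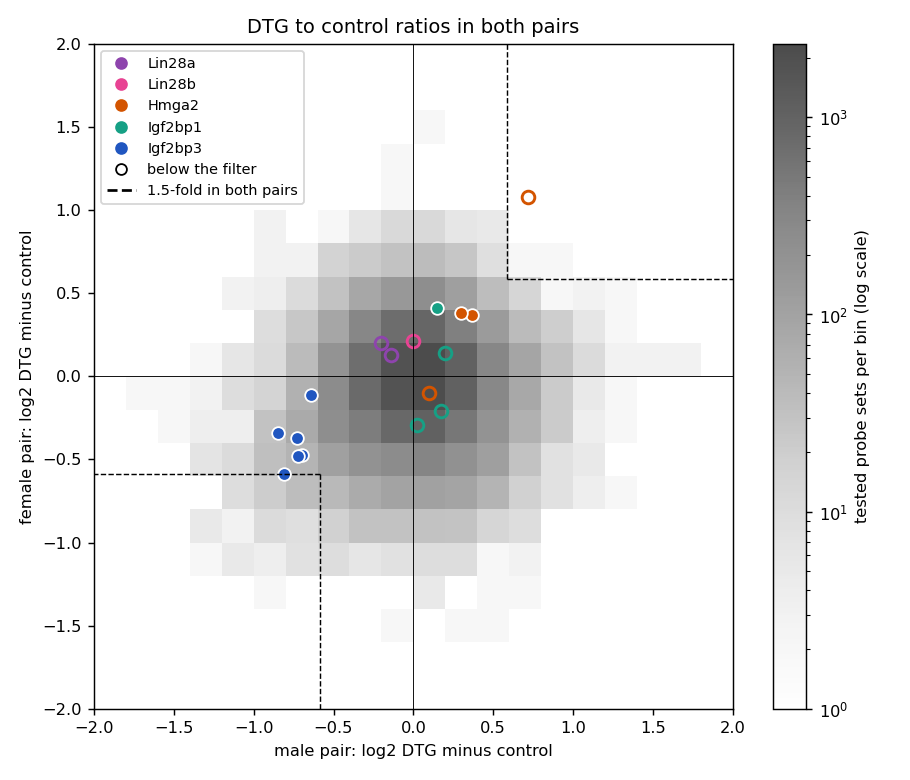
Log2 ratio of DTG to control in the male pair (horizontal) and the female pair (vertical). Grey squares count the tested probe sets per bin of 0.2 on a log scale, with 11 probe sets outside the plotted range; coloured points are members, open where below the filter, and dashed lines mark 1.5-fold in both pairs. The 6 Igf2bp3 points all lie to the lower left of 0, and 1450687_at alone of them is past the dashed corner; the open Hmga2 point past the opposite corner is 1450781_at, which lay near background.

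Markers of differentiated hair cells were lower in DTG alongside Igf2bp3. For scale, 25.1% of 11160 tested genes were lower in both pairs and 26.9% were higher. All 8 hair shaft markers were lower in DTG in both pairs (median ratio -0.85 for the male pair and -0.61 for the female pair). Their mean level was 8.77 and 9.78 in the male DTG and control arrays against 6.11 and 6.69 in the females. The female DTG mean lay under the background limit of that array, 6.49. Krt34 and Krt86 were near background in both female arrays, and Krt31, Krt33a, Krtap11-1 and Krtap13-1 in the female DTG array. Of 8 inner root sheath markers, 7 were lower in both pairs (medians -0.43 and -0.71, mean level 9.85 and 10.25 in the males and 8.10 and 8.71 in the females). Of 9 outer root sheath markers, 3 were lower and 1 higher in both (medians -0.31 and 0.04, mean level 11.73 and 11.98, then 12.31 and 12.34). Of 7 proliferation markers, 5 were lower and 1 higher in both, by little (medians -0.04 and -0.08). Counts of the other lists are a description, and some lay near the shares of all genes. Of 6 suprabasal epidermis markers, 3 were lower in both pairs (medians -0.37 and -0.01), and Krt1, a keratin of differentiating epidermis, had ratios of -3.24 and 0.70. Of 6 endothelial markers, 5 were lower in both (medians -0.57 and -0.07), with 4 of the 6 near background on all arrays. Of 8 fibroblast markers, 4 were higher and 1 lower in both (medians 0.22 and 0.18). Of 6 matrix markers, 3 were lower in both (medians -0.10 and -0.25), and of 6 melanocyte markers, 2 were lower and 1 higher in both (medians -0.20 and 0.25). Limma called 0 of the marker genes that passed the filter, and no marker can read 0 on this log2 scale. The part of these cells in the Igf2bp3 difference was not tested.

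Between the male and female arrays, the levels of Hmga2 and Igf2bp1 are a description only. Their 3 probe sets that passed the filter did so through the female arrays, and all their male values lay near background and under 5.54. Hmga2 averaged 4.90 in the males and 6.96 in the females by 1450780_s_at, and 4.92 and 6.44 by 1422851_at. Igf2bp1 averaged 4.86 and 6.62 by 1459825_x_at. The dimmer probe sets had male minus female differences from -1.51 to -0.58 for Hmga2 and from -2.15 to -0.77 for Igf2bp1. Silent genes had a median difference of -0.72 and a range from -2.20 to 0.29, and every Hmga2 and Igf2bp1 value lay within that range.

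Igf2bp3 was above background in both sexes and could be tested. On the deposited scale 4 of its 6 probe sets were lower in males by limma with genotype as a term (adjusted p from 0.00198 to 0.00824), but so were 72.3% of all tested probe sets, with 2.32% higher. The shift of the whole array by -0.69 is part of each of these values. With the 4 arrays quantile-normalized together, which removes that shift (median -0.03), 9.49% of all tested probe sets were lower and 9.82% higher in males. Probe set 1453957_a_at was then lower in males at -0.70 (adjusted p = 0.0433, limma), 1433731_at was higher at 0.56 (adjusted p = 0.0481, limma), and the other 4 did not pass. The Igf2bp3 probe sets thus gave no common direction between the sexes.

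The sorted pools also differed in their markers between the sexes. Hair shaft markers were higher in males by a median of 3.01 and inner root sheath markers by 1.99, against the array shift of -0.69. Outer root sheath markers had a median difference of -0.46. Several hair shaft markers lay near background in the female arrays, so the size of their difference is a description only. The part of these markers in the members' levels was not tested. With 1 pair per sex, effects of sex, of the control genotype and of how each pair was processed cannot be told apart.

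**Figure D4:**
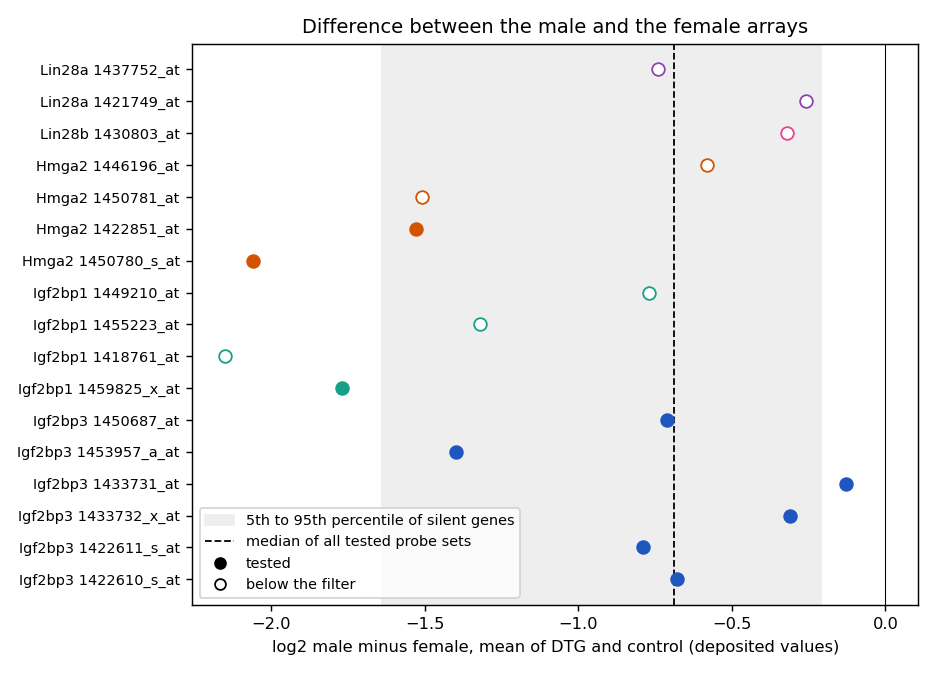
Male minus female difference (horizontal axis, log2, mean of DTG and control, deposited values) for the 17 member probe sets, filled where tested. The grey area spans the 5th to 95th percentile of the silent genes (-1.64 to -0.21) and the dashed line is the median of all tested probe sets (-0.69). Of the members, 3 lie below the grey area, 1 of Hmga2 and 2 of Igf2bp1.

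Transcripts of the genes whose proteins make, modify and degrade let-7 gave small differences. Of 16 listed genes, 15 were tested by their brightest probe set, and 6 were higher and 1 was lower in DTG in both pairs, where 26.9% and 25.1% of 11160 tested genes were. The list's median ratio was 0.16 for the male pair and 0.04 for the female pair, against 0.03 and -0.02 over all genes, and limma with sex as a block called 0 of the 15. The one lower was Dis3l2, the exonuclease that degrades let-7 precursors uridylated under Lin28. It measured 5.99 against 6.59 in the males and 7.05 against 7.77 in the females (DTG first), a mean of -0.66 ± 0.08 (SD, n = 2 pairs, limma adjusted p = 0.584). Of its 3 probe sets, only this one was lower in both pairs. Ago1, an Argonaute that carries microRNAs, had ratios of 0.53 and 0.28, and Khsrp, which promotes let-7 processing, had 0.25 and 0.21. Ago3 had 0.51 and -0.06, and Dicer1, the enzyme that cuts the precursors, had 0.34 and -0.39.

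Published let-7 targets outside the members were divided. Of 23 listed, 17 were tested, of which 3 were higher and 5 lower in DTG in both pairs, and the median ratio was 0.09 for males and -0.19 for females. E2f2, a transcription factor of the cell cycle, was lowest, with 5.92 against 6.32 in the males and 6.59 against 7.50 in the females, a mean of -0.66 ± 0.37 (SD, n = 2 pairs, limma adjusted p = 0.635). Arid3a, a DNA-binding regulator, had -0.27 and -0.30, and Rrm2, a subunit of ribonucleotide reductase, had -0.25 and -0.31 and was lower in both pairs by all 3 of its probe sets. Plagl2, a zinc finger activator of growth genes, had 0.03 and -0.53. Myc had -0.36 for the male pair and -0.03 for the female pair. Limma called 0 of the 17.

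In the insulin-like growth factor axis and the imprinted growth genes, the receptor and carrier genes held the largest differences. Of 21 listed, 18 were tested, of which 6 were higher and 4 lower in both pairs (medians 0.00 and 0.16). Igf2r, the receptor that clears Igf2, measured 8.16 against 8.69 in the males and 8.67 against 9.23 in the females, a mean of -0.55 ± 0.02 (SD, n = 2 pairs, limma adjusted p = 0.614), and both of its probe sets were lower in both pairs. Igfbp3, a carrier of the growth factors, had -1.40 and -0.81 (limma adjusted p = 0.525). Insr, the insulin receptor, had -0.25 and -0.44. Igfbp5 had -0.83 and 0.01. Igf2 itself was split, with 6.42 against 6.80 in the males and 7.44 against 7.03 in the females, and H19 was not analysed here. Limma called 0 of the 18.

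RNAs bound by Igf2bp proteins and their granule partners differed little. All 11 with a probe set were tested, 4 were lower (36.4%, against 25.1% of all genes) and 0 higher in both pairs, and the medians were 0.02 and -0.15. Ptgs2, the inducible prostaglandin synthase, had -0.51 and -0.22. Cd44, the hyaluronan receptor, had -0.15 and -0.27 by its brightest probe set, with 2 probe sets lower and 1 higher in both pairs. Hnrnpu, a nuclear RNA-binding protein, had -0.21 and -0.19 and was lower in both pairs by all 5 of its probe sets. Among 8 tested cell cycle genes linked to Hmga proteins, 2 were higher and 2 lower in both pairs (medians 0.05 and -0.03). Junb, an AP-1 subunit, had 0.17 and 0.40, Cdkn2b had -0.07 and 0.34, Cdkn1b had 0.36 and -0.11, and Ccnb2 had -0.19 and -0.02. Of 10 fetal and germline genes only Utf1 was tested, with -0.18 and 0.01. Limma with sex as a block called 0 genes of these 3 lists.

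**Figure D5:**
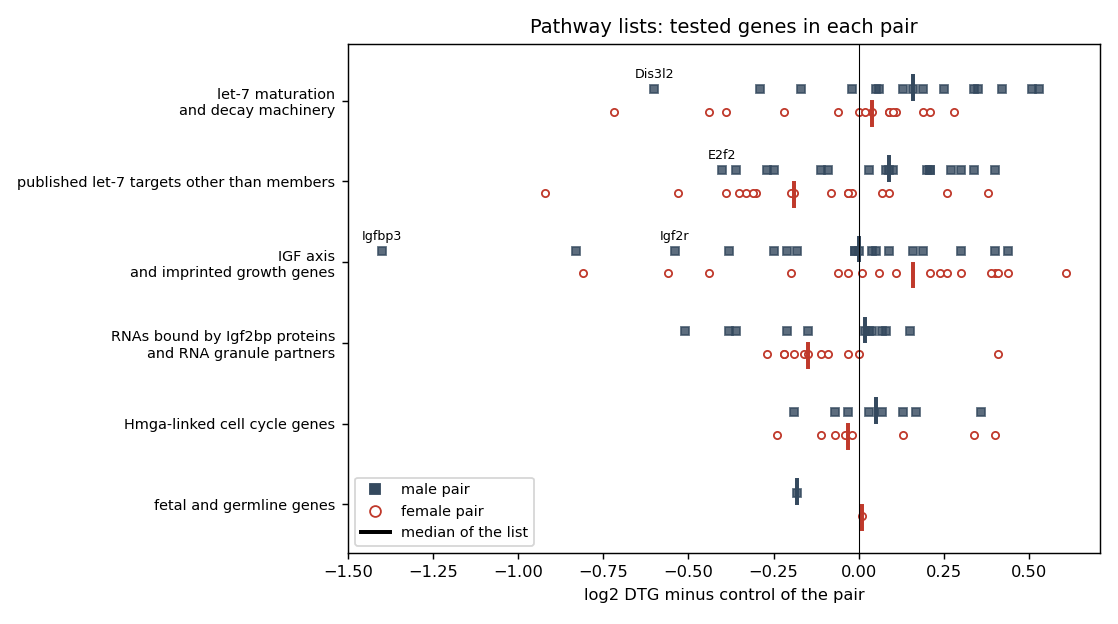
Log2 ratio of DTG to control (horizontal axis) of each tested gene in 6 pathway lists, with squares for the male and open circles for the female pair and a bar at each list's median. Genes with a mean ratio of at least 0.5 in size are named. Dis3l2, E2f2, Igfbp3 and Igf2r stand at the lower end in both pairs, while the list medians lie between -0.19 and 0.16.

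Over the 4 arrays, the genes nearest in pattern to Igf2bp3, Hmga2 and Igf2bp1 are named only as a description. Lin28a and Lin28b were too dim for this comparison. For Igf2bp3 by its brightest probe set, the 3 genes with the smallest root mean square difference of centred log2 values were C2cd2 (0.04), Gga2, a clathrin adaptor of the Golgi (0.04), and Iffo2 (0.05), and 1021 of 11159 genes lay within 0.25. That number was 436 for Igf2bp1 and 104 for Hmga2. Gga2 measured 8.81 in DTG and 9.64 in control males, and 9.69 in DTG and 10.19 in control females. For Hmga2 they were Itpkc, an inositol trisphosphate kinase (0.07), Kif17, a kinesin motor (0.09), and C1qtnf4 (0.10). For Igf2bp1 they were Coq8b of coenzyme Q synthesis (0.02), Snhg10 (0.03) and Grasp (0.04).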

How the data were processed

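The authors deposited log2 expression values for 4 arrays, for which the submitters' processing notes name RMA and Affymetrix Expression Console. Their versions, and which arrays were normalized as one set, are not given here. RMA in general corrects background, normalizes quantiles and summarises the probes of a probe set. The members and lists were chosen with earlier results of these data known. Control probe sets (64) were left out; of the rest, 34945 named 1 gene, 932 several and 9160 none in the annotation used. Probe sets with a mean above the median of all means (5.54) were tested with limma 3.58.1 in R 4.3.3. The model held genotype and sex, with moderated variances, Benjamini-Hochberg adjustment and a threshold of 0.05. The same fit was also run on simulated data with equal noise for all probe sets, unlike the arrays, so that run does not measure its power here. Sex is in the labels and pairs the arrays, each a separate mouse; male minus female differences of DTG and control correlated at r = 0.76 over probe sets. For lists, the brightest probe set stood for a gene. Named were all member probe sets, the 4 genes per list with the largest mean ratio, Igf2, H19, Dicer1 and Myc, and the 3 genes nearest to a member that ranged by at least 1. Alternatives were genotype alone, quantile normalization over the 4 arrays, no filter, an intensity trend, other folds and background limits, and each array left out. The number of arrays limits the precision.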

Additional observations from a re-analysis of the deposited data

Results flagged for a closer look

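In 5 member probe sets and in 8 of the list genes named above, the male and the female pair moved in opposite ways. With 1 pair per sex, each with its own control genotype, none of these differences between the pairs was tested. List genes that are not named include more such cases. Given as the male ratio minus the female ratio (log2 DTG to control), Lin28a had -0.27 (1437752_at) and -0.39 (1421749_at), Hmga2 had 0.20 (1446196_at), and Igf2bp1 had 0.37 (1449210_at) and 0.31 (1455223_at). All 5 lay near background on all 4 arrays.

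Among these list genes, the difference between the pairs was 0.58 for Ago3, 0.73 for Dicer1, 0.56 for Plagl2, -0.85 for Igfbp5, -0.79 for Igf2, -0.41 for Cdkn2b, 0.47 for Cdkn1b and -0.19 for Utf1. Igfbp5 and Utf1 had a female ratio of only 0.01, and Plagl2 a male ratio of only 0.03.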

How the results depend on the processing

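In the 5 genotype fits, all 6 Igf2bp3 estimates were below 0, both tested Hmga2 estimates were above 0, and 0 members were called. Each fit of the deposited values returns the mean of the 2 pair ratios, so the direction there was fixed and adds no evidence. With an array left out, it was fixed by the ratio of the remaining pair. Quantile normalization could change the estimate, and gave -0.68 in place of -0.70 for 1450687_at. Without a replicate block (genotype alone), limma called 1 probe set in all, no member; the block by sex changed no other genotype call. The smallest adjusted p of Igf2bp3 lay between 0.395 and 1 over these fits. With 3 arrays and sex as a term no test is left, and the value is the ratio of the remaining pair, from -0.81 to -0.59 for 1450687_at and from -0.64 to -0.11 for 1453957_a_at. The 1.5-fold count in both pairs was 152 over all probe sets, 1425 at 1.2-fold and 13 at 2-fold. Member probe sets lower in both numbered 1, then 5 at 1.2-fold, 0 at 2-fold and 0 after quantile normalization. Those higher numbered 0, then 2 at 1.2-fold and 1 with no filter. Calls between male and female arrays numbered 16810 of 22518 probe sets, then 35660 of 45037 with no filter and 4349 after quantile normalization. For members they numbered 7 of 9, then 13 of 17 with no filter and 4 with sex alone. These member counts include Hmga2 and Igf2bp1 probe sets whose male values lay near background, which the filter kept only by their female values. Since 72.3% of all tested probe sets were called lower in males, the member counts are a description and set no member apart. Quantile normalization reversed the male minus female difference of 1433731_at (0.56) and 1433732_x_at (0.37) of Igf2bp3 by removing the shift between the sexes. Near-background values numbered 37, 33 at the 90th percentile and 35 at each array's median. Signal near background limits what can be said of Lin28a, Lin28b, Hmga2 and Igf2bp1.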
